A study of Homo sapiens and Mus musculus with 18 samples.

Results

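10 genes of the Hippo pathway and of its effectors YAP and TAZ were followed in 2 human pancreatic cancer cell lines that differ in K17, the keratin encoded by KRT17. The members were chosen by name, with earlier results of these data known: ANKRD1, CCN1, CCN2, AMOTL1, AMOTL2, AXL, TEAD1, ASAP1, LATS2 and F3. Rows for 9 of the 10 were found among the 34505 gene rows of the human files. CCN2 was not analysed here. L3.6 is a human line labelled as pancreatic adenosquamous carcinoma, and its libraries came from cells that were wild type for K17 or had K17 knocked out with CRISPR-Cas9. PANC-1 is a human line labelled as pancreatic ductal adenocarcinoma, and its libraries came from cells with an empty vector or with K17 over-expression. Each of these 4 groups had 3 libraries, 12 in all. All cells grew in the same serum-containing medium with antibiotics. The labels used here do not say which promoter drove K17 or whether the knockout and vector cells were clones or pools, so a difference between the groups of a line and a difference between clones cannot be told apart. The 6 libraries of a mouse line, KPC, were not used here.

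The Hippo pathway is a chain of kinases that restrains cell growth and reads cell contact, cell shape and tension. MST kinases with their partner SAV1 activate LATS1 and LATS2, which phosphorylate the co-activators YAP (YAP1) and TAZ (WWTR1) and hold them in the cytoplasm. YAP and TAZ that reach the nucleus bind TEAD transcription factors and switch on targets such as CCN1, CCN2 and ANKRD1. Some targets, among them LATS2 and AMOTL2, restrain YAP in turn.

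TEAD proteins recognise a short DNA element, searched here as GGAATG and, on the other strand, CATTCC. The windows below are the 250 bases before a start site of the 4 genes that passed the test in L3.6, ANKRD1, AMOTL1, AMOTL2 and AXL, shown because these genes moved together there. They come from RefSeq on GRCh38.p14 and are written 5′ to 3′ on the gene's strand, with each match in capitals. The gene coordinates given further below are from GENCODE 29, which can place the start of a gene elsewhere. By those coordinates the printed windows of AMOTL1, AMOTL2 and AXL lie within the gene, and that of ANKRD1 overlaps it. AMOTL2 and AXL have 2 windows each in the table, of which the one with a match is printed and the other holds none.
ANKRD1 (chr10:90921088-90921337, minus strand): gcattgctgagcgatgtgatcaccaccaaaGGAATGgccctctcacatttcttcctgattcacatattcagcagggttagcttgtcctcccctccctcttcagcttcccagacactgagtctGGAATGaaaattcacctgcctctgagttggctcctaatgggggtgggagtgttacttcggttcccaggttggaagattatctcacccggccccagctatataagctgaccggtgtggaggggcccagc
AMOTL1 (chr11:94768106-94768355, plus strand): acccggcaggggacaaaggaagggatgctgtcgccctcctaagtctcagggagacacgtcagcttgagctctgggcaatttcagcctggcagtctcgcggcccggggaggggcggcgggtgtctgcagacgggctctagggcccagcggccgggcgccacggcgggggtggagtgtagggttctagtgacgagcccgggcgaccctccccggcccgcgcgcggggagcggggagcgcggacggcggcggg
AMOTL2 (chr3:134374448-134374697, minus strand): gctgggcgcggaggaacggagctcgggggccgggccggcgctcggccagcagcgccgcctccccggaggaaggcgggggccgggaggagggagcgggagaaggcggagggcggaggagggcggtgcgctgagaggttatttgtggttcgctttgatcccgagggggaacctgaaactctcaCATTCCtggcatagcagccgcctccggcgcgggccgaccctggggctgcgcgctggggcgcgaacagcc
AXL (chr19:41226505-41226754, plus strand): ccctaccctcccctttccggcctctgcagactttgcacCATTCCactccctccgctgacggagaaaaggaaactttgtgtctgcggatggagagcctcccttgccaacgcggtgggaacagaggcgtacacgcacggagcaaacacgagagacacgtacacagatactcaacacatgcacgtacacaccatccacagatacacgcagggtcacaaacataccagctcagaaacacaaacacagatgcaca

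ANKRD1 held 2 matches, both as GGAATG, which begin 220 and 128 bases before its RefSeq start site. AMOTL2 held 1 match 69 bases before a start site, AXL 1 match 212 bases before one, and AMOTL1 held none. Of 35116 windows of this length in the table, 11.9% held at least 1 match and 0.94% held 2 or more. The windows of F3 and LATS2 held none. CCN1, TEAD1 and ASAP1 are named only. A match is a string of letters and does not show that TEAD binds there.

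The human libraries held 9485257 to 15476629 counts in L3.6 and 59671178 to 70789559 in PANC-1. Levels are given in CPM, the count per unit of library size, with sizes scaled within each line. On that scale 3 counts equal 0.194 to 0.316 CPM in L3.6 and 0.0424 to 0.0503 CPM in PANC-1. KRT17 followed the labels: it had 175 to 204 counts in the L3.6 knockout libraries and 1112 to 1654 in the wild type. In PANC-1 it had 2, 0 and 0 counts with the empty vector and 8597, 9884 and 9228 with K17. PANC-1 empty vector replicate 2 stood apart, with 18.8% of its counts on mitochondrial DNA against 9.88% to 10.8% in the other 5 PANC-1 libraries. Of 8766 genes with a mean of at least 5 CPM in those 5, that library held 200 (2.28%) at least 10-fold below their lowest. The PANC-1 fold changes of the tested members are therefore given with and without it. Marker sums, group means and correlations include it. Epithelial markers summed to 3940 to 4260 CPM in the L3.6 knockout, 3330 to 3740 CPM in the L3.6 wild type and 951 to 1780 CPM in the PANC-1 libraries. All 8 had counts in each group, but the sums were mostly from KRT8 and KRT19. CDH1 had means of only 1.64 CPM in the L3.6 knockout and 1.52 CPM in the wild type. In PANC-1 it had 0.33 CPM with the empty vector and 0.847 CPM with K17. Immune markers summed to 1.70 to 6.19 CPM in the L3.6 libraries and 35.3 to 51.2 CPM in the PANC-1 libraries, there mostly from CD68, with CD3E at 0 in each group.

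In L3.6, wild-type cells had less transcript of ANKRD1, AMOTL1, AMOTL2 and AXL than K17 knockout cells. These were 4 of the 7 members with enough counts to be tested (quasi-likelihood test of edgeR, with p adjusted by Benjamini-Hochberg over all 13891 genes tested and a threshold of 0.05), and no member was called higher. Over all genes tested, 9.61% were called, 6.1% lower and 3.51% higher. As the members were chosen with earlier results known, their share is a description. The labels do not say that replicates were separate cultures, so these p-values measure the spread between libraries, which may be technical. In bulk RNA, fewer cells that express a gene and less RNA per cell cannot be told apart. In 5 members, these 4 and F3, the groups did not overlap and the wild type was lower, a pattern seen in 17.9% of all genes tested, and none had the opposite pattern, seen in 15.3%. The median log2 fold change of the 7 was -0.86, against 0.01 over all genes tested. CCN1 and LATS2 had too few counts for the test and are not part of these figures. Epithelial markers moved in the same direction in part: of 8 tested, KRT19 (-0.30, edgeR adjusted p = 0.0212) and KRT7 (-0.52, edgeR adjusted p = 0.0326) were called lower in the wild type and none higher, and their part in the members' values was not tested.

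ANKRD1 (ENSG00000148677.6, chr10:90912096-90921276, GRCh38) encodes an ankyrin repeat protein best known from heart muscle and is a standard readout of YAP activity. Its row had 319, 415 and 411 counts in the knockout libraries and 8, 10 and 10 in the wild type. In CPM these are 24.7, 29.9 and 31.8 against 0.509, 1.08 and 0.846. All 3 wild-type libraries lay far below the lowest knockout library. Wild type minus knockout came to -5.20 ± 0.246 (SE) on the log2 scale, which is 36.7-fold lower in the wild type (edgeR adjusted p = 2.33e-05). Over 14 alternatives of scaling, filter, test, block and left-out library it stayed between -5.43 and -4.91.

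AXL (ENSG00000167601.11, chr19:41219203-41261766) encodes a receptor tyrosine kinase for the ligand GAS6. It stood at 140, 128 and 137 CPM in the knockout and 68, 73.1 and 59.8 CPM in the wild type. The groups did not overlap, and replicates of a group differed by far less than the groups. The log2 fold change was -1.01 ± 0.0796 (SE; adjusted p by edgeR = 0.00025). It was -1.03 but did not pass when the 4 human groups shared 1 estimate of the spread (edgeR adjusted p = 0.231).

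AMOTL1 and AMOTL2 encode angiomotin-like proteins of cell junctions, which bind YAP and can keep it out of the nucleus. AMOTL2 (ENSG00000114019.14, chr3:134355874-134375479) stood at 90.8, 86.6 and 98.6 CPM in the knockout and 61.6, 62.2 and 54.4 CPM in the wild type. Its groups were narrow and separate, with a log2 fold change of -0.63 ± 0.0778 (SE; adjusted p by edgeR = 0.00213). AMOTL1 (ENSG00000166025.17, chr11:94706431-94876753) stood at 17.9, 26.9 and 27.7 CPM in the knockout and 7.51, 3.04 and 9.81 CPM in the wild type. Wild-type replicate 2, with 28 counts against 118 and 116 in the others, was the lowest. The log2 fold change of AMOTL1 was -1.81 ± 0.372 (SE; adjusted p by edgeR = 0.0269). That call was lost without knockout replicate 2 or knockout replicate 3 (-1.73 and -1.70, edgeR adjusted p = 0.0989 and 0.103), with no filter on low counts (adjusted p = 0.0791) and with the replicate number as a block (adjusted p = 0.0597). An antisense gene overlaps exons of AMOTL1 and another overlaps AXL, and no strand setting is given in the sources used here, so reads of the partners cannot be told apart. The pseudogene RPL39P5, which overlaps AMOTL2, had 0 to 7 counts in L3.6.

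**Figure D1:**
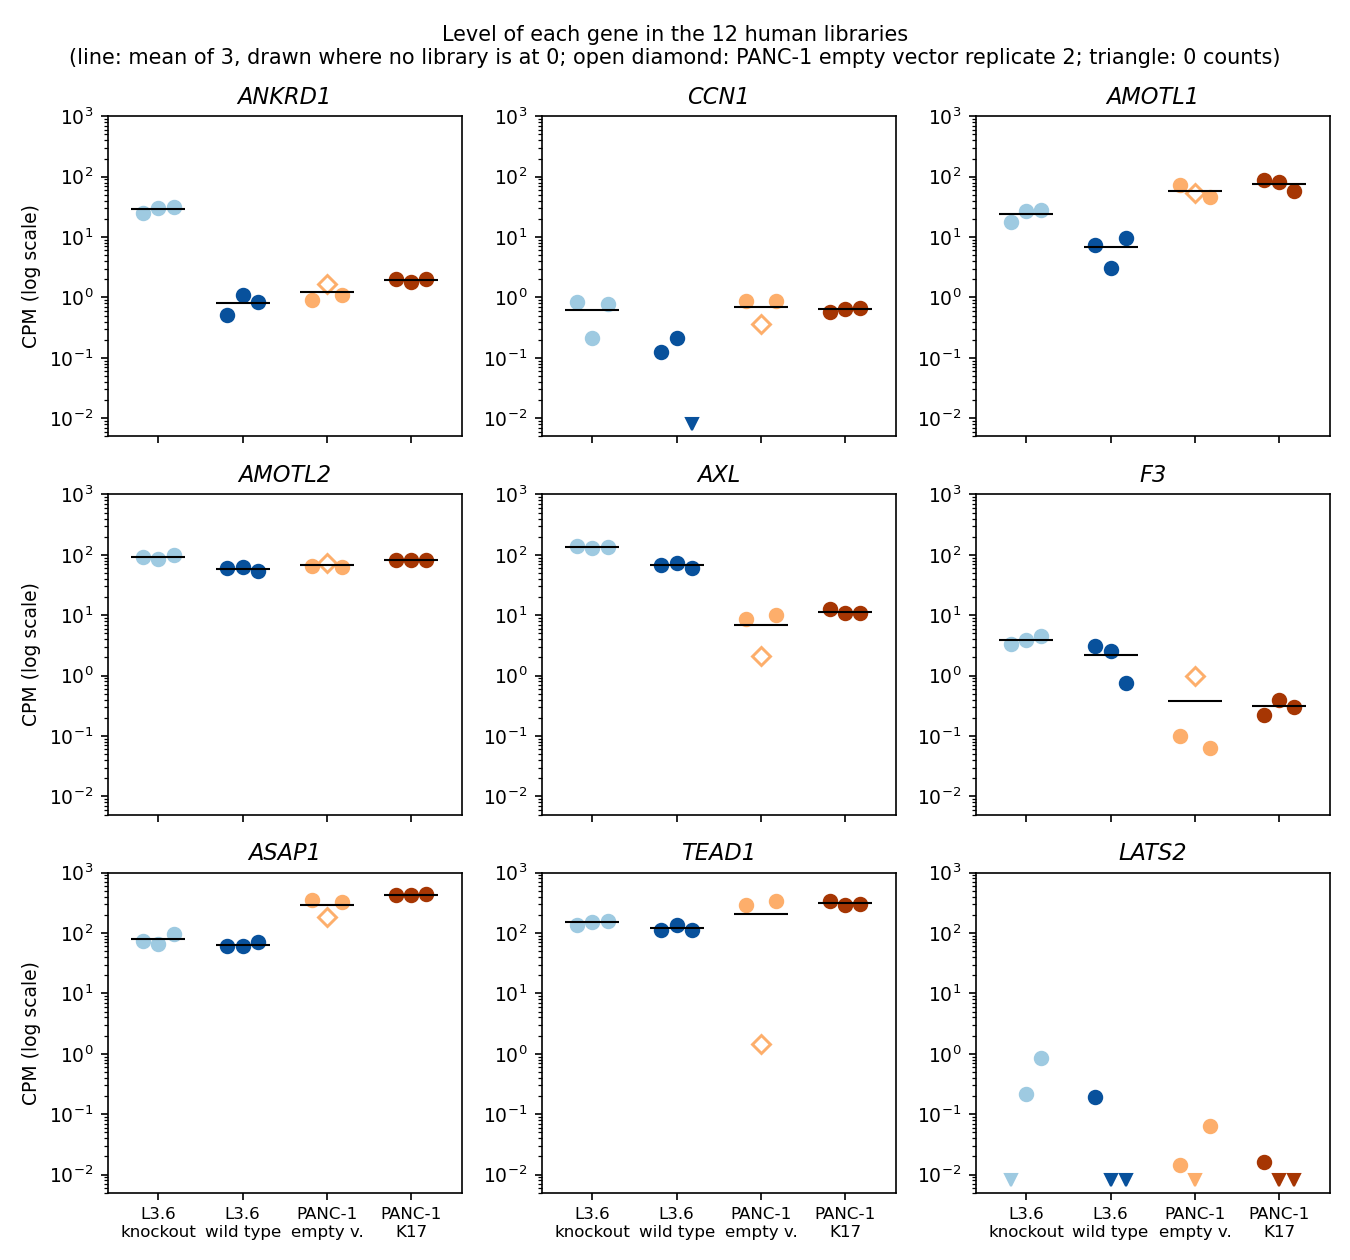
CPM of the 9 genes on a log scale in each of the 12 human libraries, 1 panel a gene, with the mean of 3 as a line where no library is at 0. ANKRD1 lies between 24.7 and 31.8 CPM in L3.6 knockout and at 0.509 to 1.08 CPM in L3.6 wild type, and TEAD1 is at 1.47 CPM in PANC-1 empty vector replicate 2, drawn as an open diamond.

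The other 3 tested members did not pass in L3.6. F3 (ENSG00000117525.13, chr1:94529225-94541800), tissue factor, the trigger of blood clotting, stood at 3.40, 3.96 and 4.49 CPM in the knockout and 3.12, 2.60 and 0.761 CPM in the wild type. The groups did not overlap, but wild-type replicate 3 lay far below its group, and the log2 fold change was -0.86 ± 0.448 (SE; adjusted p by edgeR = 0.251). TEAD1 (ENSG00000187079.16, chr11:12674591-12944483), a DNA-binding partner of YAP, stood at 136, 153 and 160 CPM in the knockout and 114, 137 and 114 CPM in the wild type. The groups overlapped slightly, and the log2 fold change was -0.30 ± 0.09 (SE; adjusted p by edgeR = 0.0754). DESeq2 called TEAD1 lower in the wild type (adjusted p = 0.0307), as did edgeR with no filter (adjusted p = 0.0232) and without wild-type replicate 2 (adjusted p = 0.0418). ASAP1 (ENSG00000153317.14, chr8:130052104-130443660), which encodes a GTPase-activating protein for ARF GTPases at focal adhesions, stood at 74.9, 66.2 and 96.2 CPM against 60.1, 61.6 and 70.5 CPM. Its groups overlapped, with a log2 fold change of -0.30 ± 0.137 (SE; adjusted p by edgeR = 0.197).

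CCN1 had few counts in L3.6, and LATS2 had few in both lines. CCN1 (ENSG00000142871.16, CYR61 in GENCODE 29, chr1:85580761-85583962), a secreted matricellular protein and classic YAP target, had 11, 3 and 10 counts in the L3.6 knockout and 2, 2 and 0 in the wild type. In PANC-1 it had 61, 25 and 56 counts with the empty vector and 36, 38 and 42 with K17. LATS2 (ENSG00000150457.8, chr13:20973032-21061547), the kinase that restrains YAP and is itself induced by it, had 0, 3 and 11 counts in the L3.6 knockout and 3, 0 and 0 in the wild type. In PANC-1 no library had more than 4 LATS2 counts. With no filter on low counts, L3.6 wild type minus knockout was -2.41 for CCN1 (edgeR adjusted p = 0.145) and -2.10 for LATS2 (edgeR adjusted p = 0.424), and PANC-1 K17 minus empty vector was -1.87 for LATS2 (edgeR adjusted p = 0.729). No difference of LATS2 was detectable at these counts. Whether the rows of CCN1 and LATS2 hold all reads of their genes was not tested.

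In PANC-1, no member passed edgeR's test with all 6 libraries. On simulated data this fit found 3 of 100 2-fold changes, so such changes can be missed. Of 8 members tested, 1 had an unadjusted p under 0.05, and DESeq2 and limma-voom also called 0. Over all 16295 genes tested, 0.644% were called, 0.583% higher and 0.0614% lower. Without empty vector replicate 2, ANKRD1, AMOTL2, ASAP1 and F3 were called higher with K17 and no member was called lower, 4 of 8, while 11.4% of 16640 genes were called higher and 9.25% lower. That fit compares 3 libraries with 2, and on simulated data 30 of its 181 calls were wrong. The median log2 fold change of the 8 was 0.48 with all libraries and 0.33 without that one, against 0.01 over all genes in each fit. ANKRD1, AMOTL2, AXL and ASAP1 had groups that did not overlap with all 6 libraries, higher with K17, as did 14.5% of all genes tested, and none was lower without overlap, as 11.1% were. Without empty vector replicate 2, F3 joined them, 5 of 8 against 25.3% of all genes, and CCN1 was lower without overlap, 1 of 8 against 22.9%.

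ANKRD1 in PANC-1 stood at 0.895, 1.66 and 1.08 CPM in the empty vector libraries and 2.06, 1.81 and 2.04 CPM with K17. Every K17 library was above every empty vector library, and the level stayed far below that of the L3.6 knockout. Its log2 fold change of K17 minus empty vector was 0.70 ± 0.268 (SE; adjusted p by edgeR = 0.459). Without empty vector replicate 2, its highest empty vector library, the change was 0.99 ± 0.184 (SE; adjusted p by edgeR = 0.00993). AMOTL2 stood at 66.3, 73.3 and 63.3 CPM in the empty vector libraries and 82.1, 81.3 and 81.6 CPM with K17. The K17 libraries were almost level and all higher, by 0.27 ± 0.117 (SE) on the log2 scale (edgeR adjusted p = 0.526), or 0.33 ± 0.037 (SE) without empty vector replicate 2 (edgeR adjusted p = 0.00116).

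ASAP1 stood at 347, 184 and 331 CPM in the empty vector libraries and 419, 433 and 440 CPM with K17. Empty vector replicate 2 was far below the rest. The log2 fold change was 0.58 ± 0.259 (SE; adjusted p by edgeR = 0.541) and 0.34 ± 0.0364 (SE) without that library (edgeR adjusted p = 0.000924). AXL stood at 8.73, 2.08 and 9.96 CPM against 12.9, 11.0 and 10.7 CPM. Its log2 fold change was 0.74 (standard error 0.547) with all libraries and 0.30 (standard error 0.114) without empty vector replicate 2, which alone was 4.19-fold below the next lowest library. Neither value passed edgeR's test (adjusted p = 0.682 and 0.118). AMOTL1 stood at 73.5, 53.8 and 46.2 CPM against 88.3, 80.2 and 58.0 CPM. Its groups overlapped, and the log2 fold changes of 0.38 and, without empty vector replicate 2, 0.33 did not pass (edgeR adjusted p = 0.649 and 0.518).

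For TEAD1, F3 and CCN1 the sign of the fold change depended on which library was left out. TEAD1 had 20569, 100 and 21317 counts with the empty vector and 20710, 17468 and 18714 with K17, or 292, 1.47 and 334 CPM against 336, 292 and 302 CPM. Empty vector replicate 2 was 199-fold below the lowest of the other 5 libraries, which were close together. As 48 of the 8766 genes above (0.548%) were at least 100-fold below in that library, TEAD1 was among its most extreme rows. The log2 fold change of TEAD1 was 0.57 ± 1.39 (SE; adjusted p by edgeR = 0.894) and -0.02 ± 0.0776 (SE) without that library (edgeR adjusted p = 0.915). F3 had 7, 68 and 4 counts with the empty vector and 14, 24 and 19 with K17. Here empty vector replicate 2 was the highest library, and the log2 fold change turned from -0.31 (edgeR adjusted p = 0.923) to 1.90 without it (standard error 0.496, edgeR adjusted p = 0.0361). F3 then stood at 0.0994 and 0.0627 CPM with the empty vector, close to the level of 3 counts. CCN1 had log2 fold changes of -0.15 with all libraries and -0.46 without empty vector replicate 2 (edgeR adjusted p = 0.892 and 0.192), and 0.03 without empty vector replicate 1 or 3, and passed in none of these fits.

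**Figure D2:**
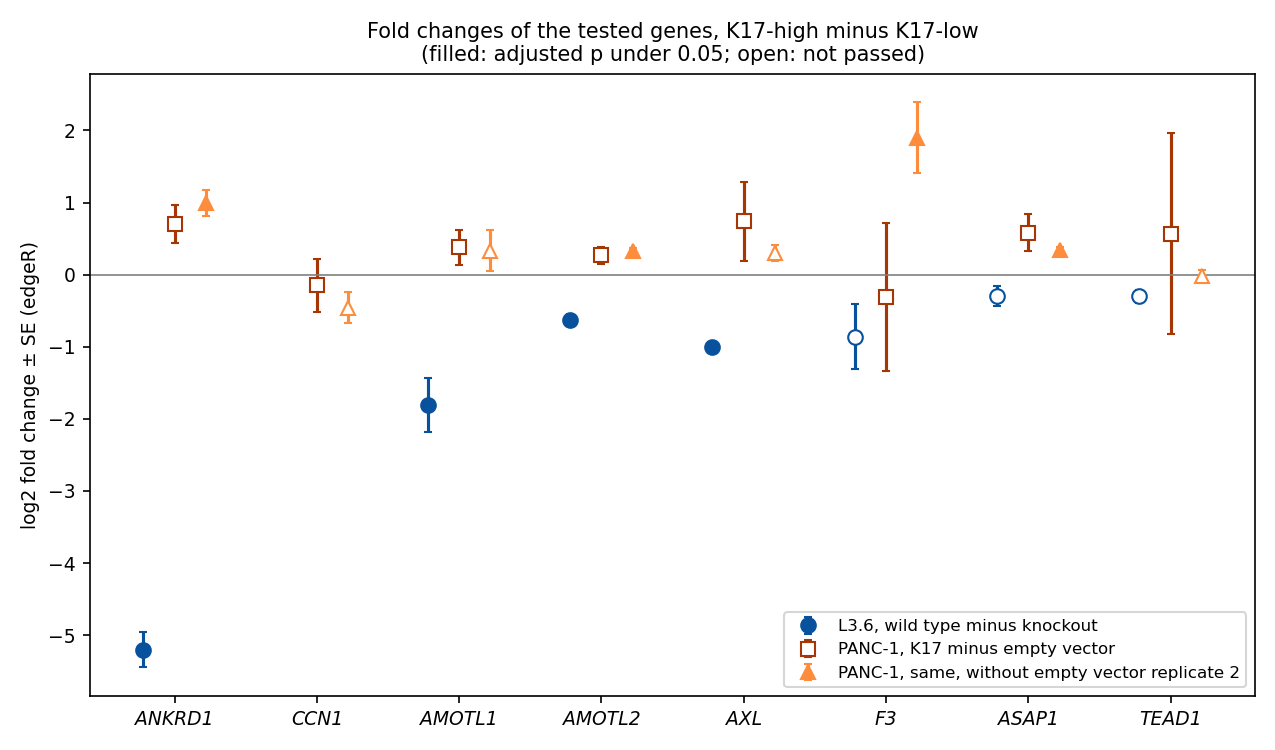
Log2 fold changes with standard errors of the 8 genes tested in at least 1 line, for L3.6 (wild type minus knockout) and for PANC-1 (K17 minus empty vector) with all 6 libraries and without empty vector replicate 2. Filled symbols passed the test. The 4 filled L3.6 points lie between -5.20 and -0.63, and the 4 filled PANC-1 points, all from the fit without replicate 2, between 0.33 and 1.90.

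Whether the K17 difference itself differed between the lines was tested as an interaction over the 12 libraries. In this 1 edgeR fit of 17583 genes, 1.54% were called, 1.25% negative and 0.284% positive. K17 was knocked out in L3.6 and over-expressed in PANC-1. KRT17 differed 7.88-fold between the groups of L3.6 and 12800-fold between those of PANC-1. The PANC-1 fold rests on 2, 0 and 0 empty vector counts and was 8950 without empty vector replicate 2. In CPM, mean KRT17 was 14.6 in L3.6 knockout and 115 in wild type. In PANC-1 it was 0.00947 with the empty vector and 151 with K17. Line, kind of change and its size therefore cannot be told apart. ANKRD1 differed by -5.83 ± 0.444 (SE) on the log2 scale (edgeR adjusted p = 7.33e-05), so it was lower with K17 in L3.6 relative to PANC-1. The same held in all 19 alternatives, from -6.27 to -5.74. AMOTL2 differed by -0.86 ± 0.168 (SE; adjusted p by edgeR = 0.0293). That call was lost without L3.6 knockout replicate 2 or 3 (edgeR adjusted p = 0.0608 and 0.0941), without wild-type replicate 2 or 3 (0.0646 and 0.0848) and with the replicate number as a block (0.177). AMOTL1 had -2.17 (edgeR adjusted p = 0.0619) and AXL -1.74 (edgeR adjusted p = 0.175), both short of the threshold. DESeq2 called both (adjusted p = 0.00086 and 0.0384), edgeR called AMOTL1 with the filter of 1 CPM in at least 3 libraries (adjusted p = 0.0424), and limma-voom called neither (adjusted p = 0.063 and 0.123). Without PANC-1 empty vector replicate 2, 6 members were called in the same direction, against 8.72% of all genes, and none in the other, against 2.82%. They were ANKRD1, AMOTL1, AMOTL2, AXL, ASAP1 and F3. In that fit AXL had -1.38 (edgeR adjusted p = 0.000139), AMOTL1 -2.20 (edgeR adjusted p = 0.0223), ASAP1 -0.72 (edgeR adjusted p = 0.0145) and F3 -2.81 (edgeR adjusted p = 0.0332). TEAD1 and CCN1 did not pass in either fit.

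The genes of YAP and TAZ themselves did not pass in L3.6. YAP1 stood at 564 ± 14.6 CPM in the L3.6 knockout and 503 ± 10.7 CPM in the wild type (SD over 3 libraries), or -0.16 on the log2 scale (edgeR adjusted p = 0.0583). WWTR1, the gene of TAZ, stood at 381 ± 11.8 and 353 ± 18.4 CPM, a log2 fold change of -0.11 (edgeR adjusted p = 0.229). TEAD2 and TEAD4 had log2 fold changes of 0.08 and -0.04 in L3.6 and did not pass. TEAD3 was not analysed here. In PANC-1 none of YAP1, WWTR1, TEAD2 and TEAD4 passed with all libraries. Their log2 fold changes were 0.03, 0.46, -0.79 and -0.57 (edgeR adjusted p = 0.978, 0.627, 0.139 and 0.628). The fit without empty vector replicate 2 compares 3 libraries with 2 and called 20.7% of all genes. In that fit YAP1 was lower with K17 (-0.24, edgeR adjusted p = 0.0346), as was TEAD2 (-0.64, edgeR adjusted p = 0.00084). WWTR1 was higher (0.22, edgeR adjusted p = 0.00105). The sign for YAP1 thus depended on that library. TEAD2 was at 20.8, 28.7 and 21.8 CPM in the empty vector libraries and at 13.5, 13.8 and 14.0 CPM with K17, so the K17 libraries lay below all 3 empty vector libraries.

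Per kilobase of exon, the scale on which genes can be set side by side, YAP1 was the most abundant of these effectors in L3.6 and WWTR1 in PANC-1. YAP1 had a mean of 80.0 CPM per kb in L3.6 wild type and WWTR1 42.0, while in PANC-1 with K17 YAP1 had 41.3 and WWTR1 156. TEAD1 was the most abundant of the 3 TEAD genes measured, at 11.8 CPM per kb in L3.6 wild type and 30.2 in PANC-1 with K17, against 4.00 and 5.39 for TEAD4 and 0.904 and 4.61 for TEAD2. In empty vector replicate 2 of PANC-1, TEAD1 stood below both. Among the targets, AXL had 13.0 CPM per kb in L3.6 wild type and 2.24 in PANC-1 with K17, and ASAP1 7.74 and 52.0. KRT18 was at 18.0 CPM and its partner keratin KRT8 at 1310 CPM in the L3.6 knockout. Whether each row holds all reads of its gene was not tested. The levels are therefore descriptions, and the lines were not tested against each other.

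**Figure D3:**
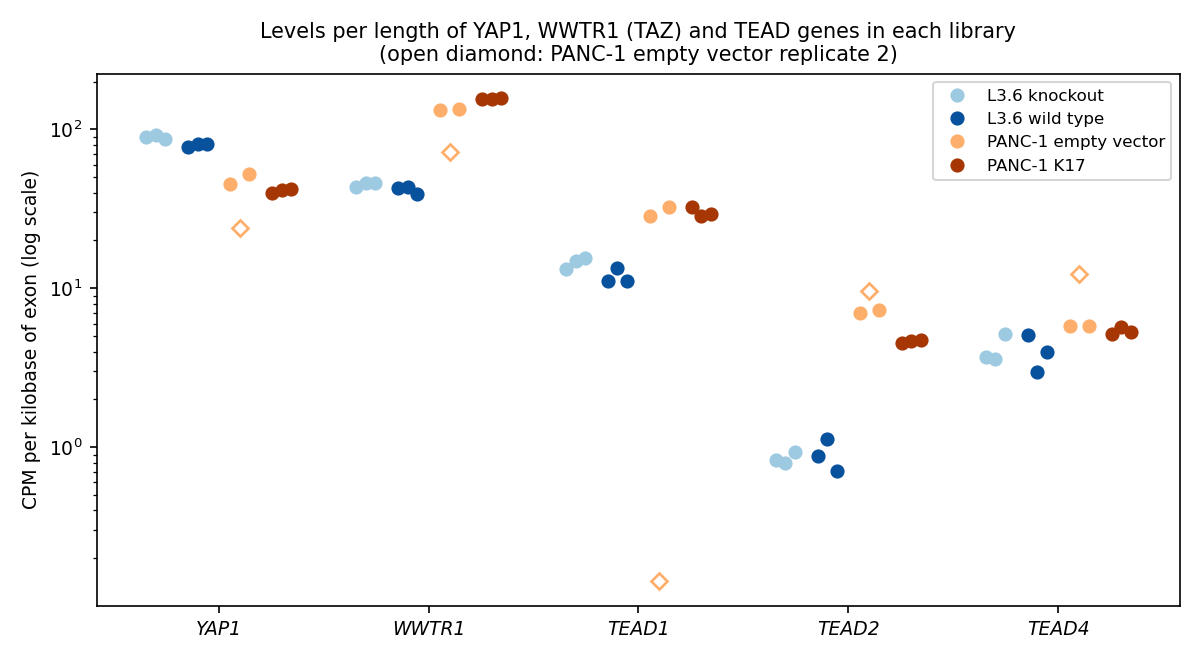
CPM per kilobase of exon on a log scale for YAP1, WWTR1, TEAD1, TEAD2 and TEAD4 in each of the 12 libraries, coloured by group. WWTR1 lies above YAP1 in the PANC-1 libraries and below it in the L3.6 libraries, and PANC-1 empty vector replicate 2 (open diamond) is low for TEAD1.

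In level, the members fell into different orders across the 4 groups. CPM was scaled within each line and not across lines, so small gaps between groups of different lines carry no weight. ANKRD1 was highest in L3.6 knockout (28.8 CPM), then PANC-1 with K17 (1.97 CPM), PANC-1 with the empty vector (1.21 CPM) and L3.6 wild type (0.813 CPM), and only the last 2 overlapped. The group means of AMOTL2 lay within 59.4 to 92.0 CPM in the same order without overlap, but its lowest PANC-1 empty vector library (63.3 CPM) and highest L3.6 wild-type library (62.2 CPM) were almost level. AXL was highest in L3.6 knockout (135 CPM) and wild type (67.0 CPM) and lowest in PANC-1 with the empty vector (6.93 CPM), with no overlap. AMOTL1 and ASAP1 were higher in both PANC-1 groups than in L3.6. The PANC-1 groups of AMOTL1 overlapped, as did the L3.6 groups of ASAP1. F3 was highest in L3.6 knockout (3.95 CPM) and lowest in PANC-1. LATS2, CCN1 and TEAD1 had overlap between all neighbours. For TEAD1, the overlap of PANC-1 empty vector with L3.6 knockout came from empty vector replicate 2, and the other overlaps did not. For CCN1, the overlap of the PANC-1 groups with each other came from that library alone.

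The other genes of the pathway are read against the 6.1% of all genes that were called lower and the 3.51% called higher in L3.6. Of 17 genes of the kinase cassette, which holds the MST, MAP4K, TAOK and LATS1 kinases with SAV1 and MOB1, 1 was higher and 1 lower in the wild type. TAOK1, a kinase that acts on the MST kinases, stood at 506 ± 3.99 CPM in the knockout and 657 ± 19.0 CPM in the wild type (SD), a rise of 0.38 (edgeR adjusted p = 0.00173), and MAP4K2 had a log2 fold change of -0.56 (edgeR adjusted p = 0.0438). The list's median was 0.08, against 0.01 over all genes. Of 28 upstream regulators tested, 3 rose and 2 fell. The polarity protein PALS1 stood at 76.3 ± 2.49 CPM in the knockout and rose by 0.94 to 146 ± 4.39 CPM in the wild type (edgeR adjusted p = 6.53e-05), the striatin STRN3 by 0.32 and the cadherin FAT1 by 0.29. AMOT, the founding angiomotin, had a log2 fold change of -0.84 (9.12 ± 0.553 CPM in the knockout, 5.05 ± 0.672 CPM in the wild type, edgeR adjusted p = 0.0261), and the scaffold WWC3 of -0.48. Of the 12 tested partners of YAP, TAZ and TEAD, 1 passed, the transcription factor RUNX1 at -0.40 (edgeR adjusted p = 0.00523).

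Further YAP and TAZ targets went both ways in L3.6. Of 24 tested, 5 fell and 2 rose in the wild type, where 6.1% of all genes were called lower and 3.51% higher, with a median of -0.26 against 0.01 over all genes. THBS1, which encodes the matrix protein thrombospondin 1, stood at 819 ± 74.5 CPM in the knockout and 201 ± 23.7 CPM in the wild type, a log2 fold change of -2.03 (edgeR adjusted p = 4.38e-05). RBMS3, an RNA-binding protein gene, had -1.15 and NT5E, which encodes the ecto-nucleotidase CD73, -1.06. IGFBP3, which binds insulin-like growth factors, rose by 2.48 and CCDC80, a secreted matrix protein gene, by 0.66. Leaving out 1 L3.6 library gave 3 to 9 calls in this list, 2 to 6 among the upstream regulators, 1 to 4 in the kinase cassette and 1 to 3 among the partners, the highest of each without wild-type replicate 1.

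In PANC-1 with all libraries, no gene of the kinase cassette, the partners or the further targets passed. Of 29 upstream regulators edgeR called 1, higher with K17, where 0.644% of all genes were called. In that list 3 had an unadjusted p under 0.05, and DESeq2 called 2 and limma-voom 1. Of 17 cassette genes 0 passed edgeR's test, 0 had an unadjusted p under 0.05 and DESeq2 and limma-voom called 0, and the most abundant, TAOK1 and MAP4K4, had log2 fold changes of 0.27 and -0.15. Of 12 partners edgeR called 0, with 1 at an unadjusted p under 0.05, 1 called by DESeq2 and 0 by limma-voom, and the most abundant, WWTR1 and ARID1A, had 0.46 and -0.13. Of 25 further targets edgeR called 0, with 3 at an unadjusted p under 0.05, 1 called by DESeq2 and 0 by limma-voom, and the abundant MYOF had -0.40.

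Without PANC-1 empty vector replicate 2, 5 cassette genes, 10 upstream regulators, 8 partners and 8 further targets passed, in both directions, where 20.7% of all genes passed. In the cassette, TNIK rose by 0.64 and MAP4K4 (-0.28), MOB1A (-0.31), TAOK1 (-0.19) and SAV1 (-0.13) fell. Among upstream regulators, the genes that rose included the tumour suppressor NF2 (0.51) and WWC1 (0.46), and the phosphatase PTPN14 (-0.42), WWC2 (-0.19) and CTNNA1 (-0.19) fell most. Among partners, RUNX2 rose by 0.49 and JUN by 0.32, beside WWTR1, and FOSL1 had -0.27, beside TEAD2 and YAP1. Among further targets, ITGB2 (0.73), NT5E (0.70), MYOF (0.66) and NUAK2 (0.66) rose and PTPN14, THBS1 (-0.34) and TGFB2 (-0.23) fell. THBS1 was thus called lower with K17 in both lines only when that library was left out (-0.01 with all 6 in PANC-1). NT5E was called in opposite directions, also only then (0.76 with all 6 in PANC-1, edgeR adjusted p = 0.0911). The differences between lines were not tested for genes outside the members.

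**Figure D4:**
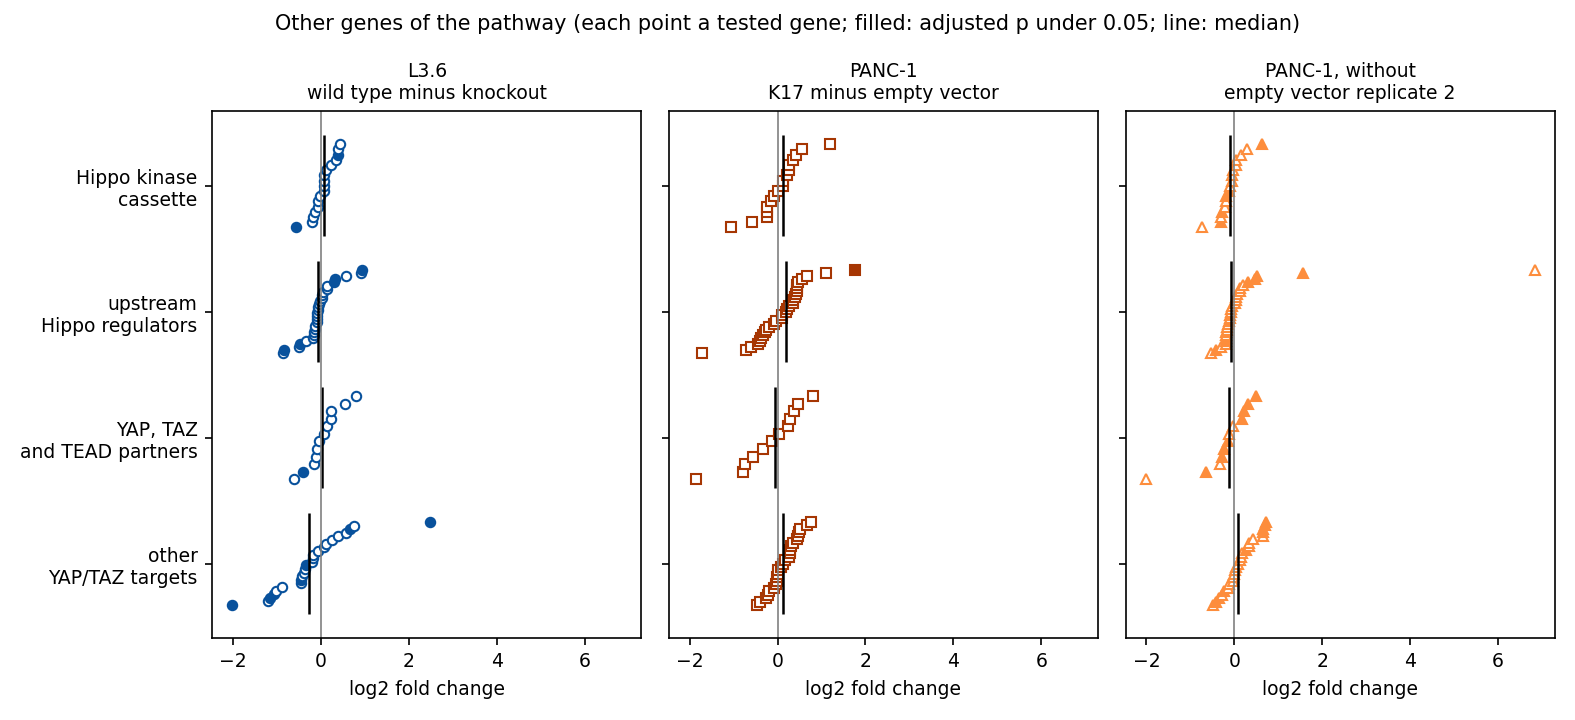
Log2 fold changes of the tested genes of 4 lists, each point a gene and filled where it passed the test, with the list's median as a line. The L3.6 medians lie between -0.26 and 0.08, beside a median of 0.01 over all genes tested.

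Over the 12 libraries, the genes whose log2 CPM followed that of ANKRD1 most closely among 10140 compared were MYH9 (Pearson r = 0.958), GID4 (0.956), MMP2 (0.935), CUL7 (0.929) and AARS1 (0.928). MYH9, the heavy chain of non-muscle myosin, stood at 2530 CPM in the L3.6 knockout, 1540 in the wild type, 1100 in PANC-1 with the empty vector and 1400 with K17. The genes were chosen for this likeness, so their levels are a description. The points share 2 lines that differ in depth, and the correlations carry no test. They include PANC-1 empty vector replicate 2, where TEAD1 was at 1.47 CPM, and were not computed without it. Among the members, the values of r with ANKRD1 were 0.52 for F3, 0.50 for AMOTL2, 0.49 for AXL, 0.29 for CCN1, 0.12 for AMOTL1, -0.01 for TEAD1 and -0.23 for ASAP1.

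Markers of other cell types were also read in both lines. Endothelial markers summed to 3.95 to 4.87 CPM in the L3.6 knockout and 10.3 to 14.6 CPM in the wild type, with TEK at 0 in the knockout and 1 of 2 tested markers, PECAM1, called higher. Of 4 tested fibroblast markers 1, COL1A1, was called higher and 1 lower in L3.6, with sums of 133 to 149 CPM in the knockout and 152 to 180 CPM in the wild type. In PANC-1 their sums were 23.9 to 41.9 CPM in the empty vector libraries and 139 to 145 CPM with K17, mostly from COL1A1, a collagen gene that tumour cells also express. Of 8 muscle markers, a set relevant to ANKRD1, DES and MYL2 were at 0 in L3.6. Of 2 tested, edgeR, DESeq2 and limma-voom called 0, with 0 at an unadjusted p under 0.05. The 8 summed to 75.3 to 90.6 CPM in the knockout and 78.6 to 113 CPM in the wild type. These sums were mostly from TTN, with means of 79.8 CPM in the knockout and 97.4 CPM in the wild type. The part of these markers in the results above was not tested.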

How the data were processed

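RNA-seq of 12 human libraries was used, 3 in each of 4 groups. The deposited values are whole-number counts per gene, 1 file per library, not normalized. Per the submitters' processing notes, the tools were kallisto 0.46.2, STAR 2.7.3a and bcl2fastq 1.8.4, and the builds GRCm38 and GRCh38. The counting tool, strand handling and treatment of multimapped reads were not given in the sources used here. Identifiers were named from a symbol table (34349 of 34505) and placed with GENCODE 29 (34474 of 34505), whose release the files do not state.

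Each line was fitted on its own in R 4.3.3 with edgeR 4.0.16 (TMM factors, filterByExpr, robust quasi-likelihood test, Benjamini-Hochberg adjustment, threshold 0.05). The difference between lines was an interaction term in 1 fit of the 4 groups. Standard errors are the log2 fold change divided by the root of F. Alternatives were other scaling factors and filters, DESeq2 1.42.0, limma-voom (limma 3.58.1), 1 fit of all groups, a replicate block and leaving out each library. The code was tested on simulated data with 100 genes changed 2-fold and 100 changed 4-fold. A call was wrong if outside these genes or in the wrong direction. In L3.6, 56 of the 2-fold changes were found, and 14 of 149 calls were wrong. In PANC-1 with all libraries, 3 were found, and 2 of 61 calls were wrong. Without empty vector replicate 2, 63 were found, and 30 of 181 calls were wrong. CPM uses TMM-scaled library sizes, and likeness to ANKRD1 is Pearson's r of log2 CPM with a prior count of 2, over genes with a mean of at least 5 CPM. Some genes of the lists are not reported here. All members were named. From each list every gene that passed was named where there were at most 6, otherwise the 3 largest changes in each direction, with ties, and the 2 most abundant where none passed. The members and the lists were chosen with earlier results of these data known.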

Additional observations from a re-analysis of the deposited data

Results flagged for a closer look

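The difference of the K17 effects between the lines was past the threshold in the interaction test for 2 of the genes. ANKRD1 was at -5.83 (L3.6 effect minus PANC-1 effect, log2), lower with K17 in 3 of 3 wild-type L3.6 libraries and higher in 3 of 3 PANC-1 K17 libraries. AMOTL2 was at -0.86, with the same directions in its libraries. In PANC-1 alone, with all libraries, neither passed edgeR's test (ANKRD1 0.70, adjusted p = 0.459, and AMOTL2 0.27, adjusted p = 0.526). In L3.6 alone ANKRD1 was at -5.20 and AMOTL2 at -0.63, and both passed. The interaction call of AMOTL2 was lost in 5 of 19 alternatives.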

How the results depend on the processing

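Counts of calls depended on the libraries. In L3.6, 1335 genes passed, against 204 in 1 fit of the 4 human groups and 574 to 2493 with 1 library left out. The split was 488 higher and 847 lower, and 639 and 706 with upper-quartile factors. In PANC-1, 105 passed, against 595 with DESeq2, 363 in the fit of all groups and 0 to 3442 with 1 library left out. It was 3442 without empty vector replicate 2, 1 without empty vector replicate 1 and 0 without empty vector replicate 3 or any 1 K17 library. The interaction had 270, against 783 with DESeq2 and 138 to 1819 with 1 library left out. The members called in PANC-1 were 0 to 4.

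With the replicate number as a block, 665 genes passed in L3.6, 0 in PANC-1 (1262 at an unadjusted p under 0.05 with edgeR) and 70 in the interaction. Samples that share a number did not deviate together: r was -0.12, -0.04 and 0.02 in L3.6 and 0.05, 0.09 and 0.02 in PANC-1, and not every library correlated best with its own number.

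Directions turned in PANC-1 only. F3 was 0.65 with limma-voom, 0.47 with the replicate block and -0.80 to 1.90 with 1 library left out. CCN1 was -0.46 to 0.03 and TEAD1 -0.02 to 1.07 with 1 library left out. The cause was not tested. ANKRD1 and AMOTL2 in L3.6 kept their call in 14 of 14 alternatives each. The filter of 1 CPM in at least 3 libraries removed CCN1 and F3 in PANC-1, so they have no value there. The filter on low counts removed CCN1 and LATS2 from the L3.6 comparison, and without it neither passed.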
